A study of Homo sapiens with 8 samples.

Results

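Some replication origins lay inside a long noncoding RNA (lncRNA) gene and touched no protein-coding gene. They were a small share of the origins mapped in 4 HCT116 cell lines. HCT116 is a human colon cancer line. Short nascent strand sequencing (SNS-seq), which purifies the RNA-primed DNA strands made at newly fired origins, had been run on WT cells and on 3 knockout lines, *ORC1Δ*, *ORC2Δ*, and *ORC5Δ*, with 2 replicates per line and 8 samples in all. All 4 lines carried the p53−/− background, so WT stands for HCT116 p53−/− with intact *ORC* genes. The knockouts were made with CRISPR–Cas9, and the study describes the targeted subunit as undetectable on its immunoblots, while a trace of a truncated ORC2 in *ORC2Δ* cells had been reported by others. An origin counted here when its interval in a count table lay on chromosomes 1 to 22, overlapped a lncRNA gene of GENCODE release 44 on hg38, overlapped no protein-coding gene body, and lay within 100 kb of a protein-coding gene. This rule used position only and no read count. In the table that sets *ORC1Δ* against WT it took 3252 of 41785 origins (7.78%). It took 3386 of 43698 (7.75%) in the *ORC2Δ* table and 3562 of 46021 (7.74%) in the *ORC5Δ* table. Of those taken, 69.9%, 66.9%, and 63.6% overlapped an origin called in WT cells. The 3 tables thus share many origins, and likeness among them is partly built in.

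Each table gave 1 read count for WT and 1 for the knockout line at every origin, with the replicates of a line already merged. No difference between lines could therefore be tested against replicate spread, and the intervals below cover counting error only, with PCR reads that are not independent molecules. The tables held 6416892 to 6878409 WT reads and 6691088 to 8523971 knockout reads, and RPM values, the reads of an origin scaled to a fixed library size, are relative to these totals. The 3 tables share the WT reads, so the 3 knockout folds of an origin are not independent of each other. DNA reads at origins carry no check of the knockouts themselves.

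lncRNA genes are transcribed by RNA polymerase II and many are spliced and capped, but they encode no known protein. Many start beside a protein-coding promoter and run away from it, others lie antisense to a neighbor, and others stand alone between genes. The origin recognition complex, ORC, binds DNA and loads the MCM2–7 helicase in G1 phase, and origins in human cells are known to lie often at active promoters, at CpG islands, and near G-rich sequence that can fold into G-quadruplexes.

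Before the values, the letters of some of these origins show examples of the extremes. Each line below holds 200 bases of the hg38 plus strand, centered where possible on the window with the strongest G-quadruplex score, and capitals mark runs of 3 or more G or C. The first 3 are from loci with higher signal in all 3 knockout lines than in WT. They were chosen because each is a long tract with G on one strand and C nearly absent from it, or the mirror of this.
ENSG00000255931 (chr11:61497099-61497298): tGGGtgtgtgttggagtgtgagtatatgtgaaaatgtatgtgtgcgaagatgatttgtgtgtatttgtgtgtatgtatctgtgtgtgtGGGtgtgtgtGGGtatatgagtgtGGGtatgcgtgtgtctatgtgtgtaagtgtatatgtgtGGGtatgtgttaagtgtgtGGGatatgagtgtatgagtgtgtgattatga
BCRP3 (chr22:24633592-24633791): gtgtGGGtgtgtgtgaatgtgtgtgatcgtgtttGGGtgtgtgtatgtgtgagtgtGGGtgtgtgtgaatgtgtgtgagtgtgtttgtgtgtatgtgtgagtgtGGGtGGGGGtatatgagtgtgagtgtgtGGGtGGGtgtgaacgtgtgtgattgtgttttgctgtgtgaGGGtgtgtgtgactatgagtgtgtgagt
ENSG00000227619 (chr9:129576403-129576602): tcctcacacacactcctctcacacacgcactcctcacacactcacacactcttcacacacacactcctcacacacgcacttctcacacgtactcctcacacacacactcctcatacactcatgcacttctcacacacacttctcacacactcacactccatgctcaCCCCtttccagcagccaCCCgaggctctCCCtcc
The stretch in ENSG00000255931 held 78 G and 4 C, and that in BCRP3, a pseudogene transcript of the BCR family, held 94 G and 4 C. Both were built from GTGTGTG-like units. The stretch in ENSG00000227619 ran the other way, with 99 C and 10 G. The runs of 3 or more G or C were few, from 3 to 8 in a stretch.

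The next 4 stretches are from loci with lower signal in all 3 knockout lines. They were chosen from the 8 lowest to show 3 of mixed sequence with both G and C runs and 1 of C and T.
MIR646HG (chr20:60088391-60088590): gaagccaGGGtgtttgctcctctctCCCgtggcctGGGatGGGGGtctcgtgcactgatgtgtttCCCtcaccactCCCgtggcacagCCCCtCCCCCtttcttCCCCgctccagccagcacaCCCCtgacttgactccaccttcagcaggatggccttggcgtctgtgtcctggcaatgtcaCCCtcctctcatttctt
MIRLET7BHG (chr22:46069933-46070132): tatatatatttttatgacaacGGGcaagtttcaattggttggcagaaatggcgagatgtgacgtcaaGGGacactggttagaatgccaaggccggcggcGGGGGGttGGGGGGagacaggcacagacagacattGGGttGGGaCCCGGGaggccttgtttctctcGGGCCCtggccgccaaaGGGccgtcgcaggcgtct
ENSG00000235198 (chr10:117565149-117565348): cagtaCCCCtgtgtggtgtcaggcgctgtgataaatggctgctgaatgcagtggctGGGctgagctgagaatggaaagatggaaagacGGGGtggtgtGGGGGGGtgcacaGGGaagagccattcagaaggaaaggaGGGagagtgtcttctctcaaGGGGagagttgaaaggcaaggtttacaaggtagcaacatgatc
ENSG00000225129 (chr20:59355749-59355948): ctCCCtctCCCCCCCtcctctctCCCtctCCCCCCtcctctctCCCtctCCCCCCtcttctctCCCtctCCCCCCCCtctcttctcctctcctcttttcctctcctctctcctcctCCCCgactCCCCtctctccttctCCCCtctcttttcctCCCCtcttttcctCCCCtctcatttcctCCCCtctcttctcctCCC
The stretch in MIR646HG held 45 G and 77 C with 3 G runs and 8 C runs, and that in MIRLET7BHG held 73 G and 42 C with 9 G runs and 2 C runs. ENSG00000225129 held the tract of C and T. Not every extreme locus followed these examples. The stretch in ENSG00000285847, also among the lowest, had 0 G runs and 6 C runs, that in ENSG00000257657 had 8 G runs and 0 C runs, and that in ENSG00000287400, among the highest, had 7 G runs and 5 C runs.

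The last 4 stretches are from loci with the most WT signal among the origins in lncRNA genes. They are shown because repeated or shared units stand out in them.
ENSG00000228361 (chr6:168234076-168234275): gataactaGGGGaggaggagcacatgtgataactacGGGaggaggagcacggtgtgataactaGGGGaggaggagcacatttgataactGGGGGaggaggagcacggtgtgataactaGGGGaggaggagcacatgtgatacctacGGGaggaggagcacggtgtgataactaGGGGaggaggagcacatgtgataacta
ENSG00000242540 (chr2:5705922-5706121): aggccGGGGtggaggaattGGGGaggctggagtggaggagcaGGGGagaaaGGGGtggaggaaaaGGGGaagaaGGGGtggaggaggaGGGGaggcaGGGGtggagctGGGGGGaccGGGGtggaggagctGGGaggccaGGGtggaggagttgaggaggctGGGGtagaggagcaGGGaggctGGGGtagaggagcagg
SLC5A4-AS1 (chr22:32205840-32206039): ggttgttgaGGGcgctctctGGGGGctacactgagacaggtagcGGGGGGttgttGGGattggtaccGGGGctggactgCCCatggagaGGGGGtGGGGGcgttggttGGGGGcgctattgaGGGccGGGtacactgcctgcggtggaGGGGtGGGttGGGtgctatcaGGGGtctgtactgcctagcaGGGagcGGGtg
AP1B1P1 (chr22:32122668-32122867): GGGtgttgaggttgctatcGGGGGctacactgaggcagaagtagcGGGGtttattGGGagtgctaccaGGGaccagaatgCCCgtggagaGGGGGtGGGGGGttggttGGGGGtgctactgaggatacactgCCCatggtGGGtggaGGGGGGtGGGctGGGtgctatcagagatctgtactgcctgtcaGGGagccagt
The stretch in ENSG00000242540 held 121 G and 15 C with 15 G runs. The stretches in SLC5A4-AS1 and AP1B1P1, both on chromosome 22, shared long words with each other, and the whole origins shared 182 words of 12 bases.

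The origins in lncRNA genes lay less densely along the DNA open to them than origins in protein-coding genes did. In the *ORC1Δ* table they numbered 18.2 per Mb (17.6–18.8) over the 179 Mb that the rule allows, against 19.5 per Mb (19.2–19.7) over 1249 Mb of protein-coding gene bodies. Origins in no gene but within the same 100 kb numbered 17.3 per Mb. lncRNA genes farther than 100 kb from a protein-coding gene held only 6.78 origins per Mb (6.45–7.11), and DNA in no gene at that distance held 5.90 (5.70–6.11). The same order held in the *ORC2Δ* table, at 18.9, 20.3, 18.6, 6.76, and 6.03 per Mb, and in the *ORC5Δ* table, at 19.9, 21.5, 19.3, 7.19, and 6.33. The intervals of lncRNA genes and of DNA in no gene, both near protein-coding genes, overlapped in all 3 tables. Nearness to a protein-coding gene thus went with a larger step in density than the presence of a lncRNA gene did.

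In their overlap with CpG islands these origins stood between those of protein-coding genes and those in no gene. A CpG island was called on hg38 as a stretch of at least 200 bases with at least 50% G+C and an observed over expected CpG ratio of at least 0.6. Of the origins in lncRNA genes of the *ORC1Δ* table, a share of 12.6% (11.5–13.7) overlapped an island, against 18.1% in protein-coding gene bodies, 8.17% in no gene within 100 kb, and 13.8% of all origins. Median G+C content was 51.3%, against 54.0% in protein-coding genes and 52.5% over all origins. The median absolute GC skew, the difference of G and C counts over their sum without its sign, was 0.36 against 0.36 over all origins. A G-quadruplex window (G4Hunter score of 1.5 or more in 25 bases on either strand) was found in 85.2% of them and in 85.1% of all origins. The motif GTGTGTG, searched on both strands, was in 15.7% against 16.7%, and CACCATCAC in 2.28% against 2.45%. At least 4 copies of ATCC in tandem were in 2.06% against 2.40%.

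When rows of the 3 tables that overlapped were merged, the origins in lncRNA genes came down to 4388 loci of 56317, in 2254 of the 18390 lncRNA genes annotated on these chromosomes. Of these genes 1208 held 1 locus and 137 held 5 or more. A locus was in the deposited peak list of WT cells in 51.2% of cases, of *ORC1Δ* cells in 58.1%, of *ORC2Δ* cells in 65.8%, and of *ORC5Δ* cells in 71.4%. Over all loci these shares were 52.7%, 58.6%, 66.0%, and 72.2%. All 4 lines shared 30.2% (28.9–31.6) of the loci in lncRNA genes and 31.9% of all loci. A further 7.59% were in the 3 knockout lists but not in the WT list, against 7.28% of all, and 4.17% were in the WT list alone, against 4.35%. The choice of these loci in the 4 lines was thus close to that of origins at large.

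Few of the origins in lncRNA genes changed past 1.5-fold, and they did so about as often as origins at large. In *ORC1Δ* cells 227 of 3252 (6.98%) were higher than WT by at least 1.5-fold in RPM, against 7.00% of all origins, and 105 (3.23%) were lower by at least as much, against 3.95%. In *ORC2Δ* cells 136 of 3386 (4.02%) were higher, against 4.62% of all, and 112 (3.31%) lower, against 3.61%. In *ORC5Δ* cells 67 of 3562 (1.88%) were higher, against 2.05%, and 33 (0.926%) lower, against 0.682%. After removal of the trend of fold with G+C content over all origins, the higher origins in lncRNA genes in *ORC1Δ* cells numbered 144 of 3252. This count was not made over all origins, so these values cannot tell whether the drop from 227 is particular to lncRNA genes. The *ORC1Δ*, *ORC2Δ*, and *ORC5Δ* medians of the log2 fold were 0.01, −0.03, and 0.00, where all origins had −0.01, −0.04, and −0.00. Origins in lncRNA genes held 7.39% of WT reads and 7.50% of *ORC1Δ* reads, 7.33% and 7.34% in the *ORC2Δ* table, and 7.31% of both in the *ORC5Δ* table. Their share of the reads was thus nearly the same for WT and the knockout line in each table, which does not measure the absolute amount of signal.

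The limit of 100 kb did not mark a break in these values. In the *ORC1Δ* table the 290 origins in lncRNA genes 80 to 100 kb from a protein-coding gene, just inside the limit, had a median log2 fold of 0.10, with 10.0% higher and 2.07% lower by 1.5-fold. The 235 origins 100 to 120 kb away, just outside, had a median of 0.04, with 8.51% higher and 2.55% lower. In *ORC2Δ* cells the medians were −0.07 and −0.08, and in *ORC5Δ* cells 0.02 on both sides.

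What went with higher signal in the knockout lines was the imbalance of G and C. Of the origins in lncRNA genes whose absolute GC skew reached 0.8, *ORC1Δ* cells had 43 of 59 (72.9%) higher by 1.5-fold, *ORC2Δ* cells 36 of 62 (58.1%), and *ORC5Δ* cells 29 of 63 (46.0%). None was lower in any line, and the median log2 fold was 0.83, 0.71, and 0.54. With a skew of 0.6 to 0.8 the shares were 35.7%, 27.2%, and 11.7%. With a skew of 0.2 to 0.4, the range that held 1572 of the 3252 origins in the *ORC1Δ* table, they were 2.67%, 0.84%, and 0.39%. All origins showed the same steps, at 69.2%, 62.8%, and 43.1% for a skew of 0.8 or more and 38.1%, 26.5%, and 13.1% for 0.6 to 0.8.

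**Figure D1:**
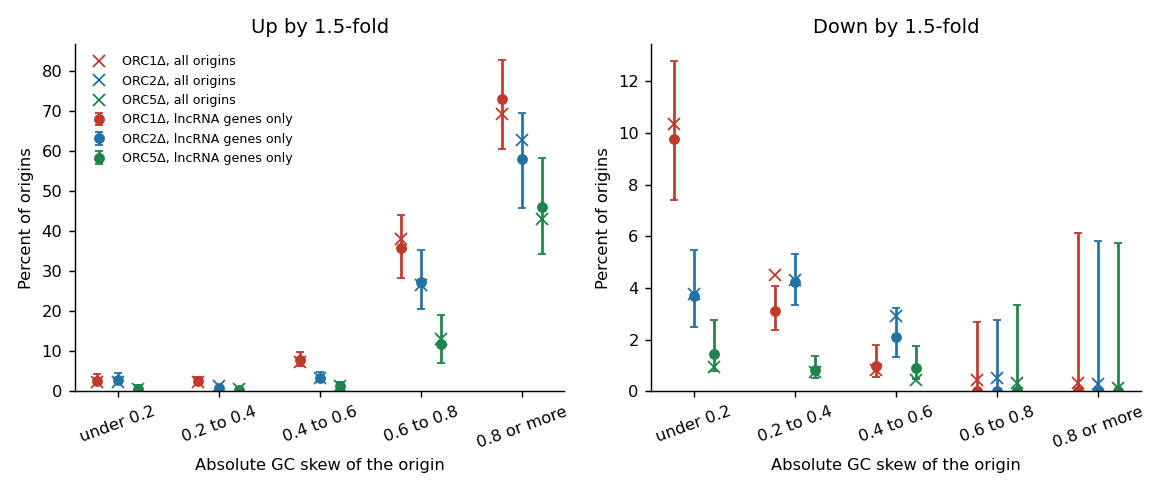
Share of origins (percent, y axis) that were higher (left) or lower (right) than WT by 1.5-fold in each knockout line (colors), by absolute GC skew of the origin (x axis). Dots are origins in lncRNA genes only, with 95% Wilson intervals that cover counting of origins only, and crosses are all origins; in *ORC1Δ* cells the share higher went from 2.55% with a skew under 0.2 to 72.9% with a skew of 0.8 or more.

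The balanced origins went the other way, mainly in *ORC1Δ* cells. With a skew under 0.2, the origins in lncRNA genes that were lower by 1.5-fold made up 9.79% in the *ORC1Δ* table, 3.69% in the *ORC2Δ* table, and 1.46% in the *ORC5Δ* table. Over all origins the shares were 10.4%, 3.77%, and 0.95%. The GTGTGTG motif, which was searched for after its units had been seen in the highest loci, went with higher signal too. Of the origins in lncRNA genes that held it, 13.7%, 9.68%, and 3.23% were higher in the 3 lines, against 5.73%, 2.87%, and 1.63% of those without it. Of all origins with the motif 11.1%, 8.84%, and 3.01% were higher, against 6.18%, 3.73%, and 1.86% without it. The highest loci, from which the motif was taken, are counted in these shares. How reads that map to several places were handled is not given in the sources used here, so values in tandem repeats such as these are uncertain.

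Among the 2579 loci in lncRNA genes that all 3 tables measured, 33 (1.28%) were higher by 1.5-fold in all 3 knockout lines, against 1.57% of the 33799 such loci at large, and 5 (0.194%) were lower in all 3, against 0.145%. The 33 had a median absolute GC skew of 0.76, and 25 of them had at least 0.6. A GTGTGTG motif was in 14, at least 4 tandem copies of ATCC were in 9, CACCATCAC was in 6, and a G-quadruplex window was in 18. Only 6 of the 33 were in the WT peak list, and 2 overlapped a CpG island. Loci not in the WT list had to be in all 3 knockout lists, since a row needs a peak in WT or in its knockout line. The 531 loci at large that were higher in all 3 lines had a median skew of 0.81, with 453 at 0.6 or more. Among these 531, GTGTGTG was in 151, the ATCC copies in 164, CACCATCAC in 157, and a G-quadruplex window in 303, while 129 were in the WT list and 19 in a CpG island. The 33 in lncRNA genes included loci in ID2-AS1 and SOX9-AS1, named as antisense genes of ID2 and SOX9. Others lay in CCNT2-AS1, DLGAP4-AS1, ZMIZ1-AS1, LINC00668, and LINC01310.

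The locus in ENSG00000255931 (chr11:61496895-61497469), in an intron 454 bp from a start of that gene and near PPP1R32, stood first when loci were ordered by their smallest fold over the 3 lines. It had 27 WT reads against 88 *ORC1Δ* reads, 27 against 125 *ORC2Δ* reads, and 26 against 89 *ORC5Δ* reads. All 3 knockout lines were far above WT, at log2 folds of 1.64 (1.01–2.32), 1.98 (1.37–2.63), and 1.47 (0.82–2.16).

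The locus in BCRP3 (chr22:24633377-24633972), near GGT1, whose product breaks down glutathione outside the cell, had 34 WT against 113 *ORC1Δ* reads, 39 against 131 *ORC2Δ* reads, and 34 against 97 *ORC5Δ* reads. The log2 folds were 1.67 (1.11–2.27), 1.51 (0.99–2.07), and 1.20 (0.63–1.81). BCRP3 is one of several near copies of part of BCR on chromosome 22, so its reads may have been shared among copies in mapping. The same holds for ENSG00000290199 (chr22:23954278-23955064), which lay beside GSTT2B, a glutathione transferase gene with a close neighbor copy. It had 48 against 164, 49 against 196, and 49 against 159 reads, with log2 folds of 1.71, 1.77, and 1.39.

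The locus in ENSG00000287400 (chr1:41328755-41329649), 32272 bp from the forkhead factor gene FOXO6, had 67 WT against 197 *ORC1Δ* reads, 63 against 186 *ORC2Δ* reads, and 57 against 171 *ORC5Δ* reads. Its log2 fold was 1.33 (0.91–1.76) in *ORC2Δ* and 1.28 (0.84–1.73) in *ORC5Δ* cells, and the *ORC1Δ* interval was 1.09 to 1.92, with a skew of 0.50. The locus in LINC02691 had 56 against 134, 50 against 155, and 49 against 128 reads. Here *ORC2Δ* was the highest of the lines, with a log2 fold of 1.40 (0.93–1.89), and *ORC1Δ* and *ORC5Δ* stood at 1.20 and 1.08.

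The remaining loci of the 8 highest lay in ENSG00000226471 (chr22:28831185-28831689), near the unfolded protein response gene XBP1, in ENSG00000227619 (chr9:129576161-129576602), near the protein N-terminal methyltransferase gene NTMT1, and in ENSG00000287332. In ENSG00000226471 the log2 folds were 1.56, 1.29, and 1.04, and in ENSG00000227619 they were 1.31, 1.07, and 1.01. All 8 loci were absent from the WT peak list. A row needs a peak in WT or in its knockout line, so these loci had to be in all 3 knockout lists. The lists and the folds rest on the same reads.

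The loci that were lower in all 3 lines lost less than these gained. MIR646HG, the host gene of a microRNA, held one at a start of the gene (chr20:60088332-60088706). It had 66 WT reads in each table against 39 *ORC1Δ*, 37 *ORC2Δ*, and 48 *ORC5Δ* reads, with log2 folds of −0.82 (−1.43 to −0.23), −1.07 (−1.69 to −0.47), and −0.77 (−1.34 to −0.21). The other origins within 500 kb had medians of −0.31, −0.27, and −0.05. MIRLET7BHG, the host gene of let-7b, a microRNA that represses growth genes, held another in a CpG island (chr22:46069791-46070254). This locus lay at a transcript start of another lncRNA gene and not at one of MIRLET7BHG. It had 75 WT reads against 44, 49, and 60, with log2 folds of −0.83, −0.85, and −0.63. Here the medians of the other origins within 500 kb were −0.17, −0.05, and −0.01. Both loci were thus lower in every knockout line than in WT, and they were picked for this. The microRNA host genes as a whole were not measured.

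The locus in ENSG00000235198 (chr10:117564815-117565512), 15268 bp from the homeobox gene EMX2, had 136 WT reads against 88, 90, and 108, with log2 folds of −0.69, −0.83, and −0.64. That in ENSG00000285847 (chr1:184635068-184635477) had 77 WT reads against 50, 51, and 55, with log2 folds of −0.68, −0.83, and −0.79. The C and T tract of ENSG00000225129 (chr20:59355749-59356396), near the endothelin gene EDN3, had 176 WT reads against 116, 130, and 147. Its log2 folds were −0.66, −0.67, and −0.57 at a GC skew of −0.58, in a range of skew where 80 origins in lncRNA genes were higher and 10 lower in *ORC1Δ* cells. The other origins within 500 kb of it had medians of −0.26, −0.17, and −0.05. Around ENSG00000235198 these medians were −0.02, −0.16, and −0.07, and around ENSG00000285847 −0.09, −0.24, and −0.15. Of the 5 loci past 1.5-fold in all 3 lines, all were in the WT list, none had a skew of 0.6 or more in size, and the median G+C content was 53.0%. Of the 49 loci at large that were lower in all 3, all were in the WT list and 2 had such a skew. Peak lists and folds rest on the same reads, so list status is not separate evidence.

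**Figure D2:**
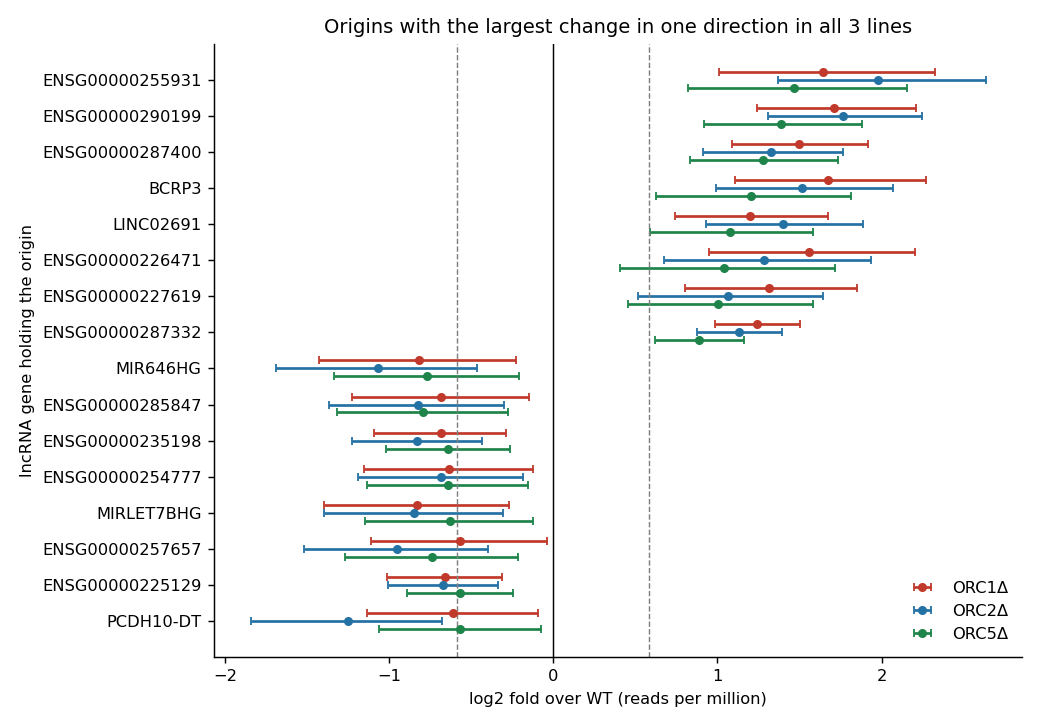
log2 fold of each knockout line (colors) over WT (x axis), with exact 95% intervals for counting error, at the 8 highest and 8 lowest loci in lncRNA genes (y axis, by gene) ordered by their smallest change over the 3 lines, with dashed lines at 1.5-fold. The high loci sit between 0.89 and 1.98 and the low loci between −1.25 and −0.57 in all 3 lines.

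Some loci were far from WT in 1 or 2 knockout lines and were absent from the table of another, because a row needs a peak in WT or in that line. In LINC01694 (chr21:45591681-45592005), near the folate transporter gene SLC19A1, the *ORC2Δ* table gave 12 WT reads against 123, a log2 fold of 3.12 (2.27–4.12). In ENSG00000234210 (chr7:157481513-157482361) it gave 21 against 165, a log2 fold of 2.74 (2.08–3.47). Both were in the peak list of *ORC2Δ* cells alone, so no value of the other lines stands beside them. Their rows exist only through the *ORC2Δ* peak, which favored a high fold there. The intervals do not cover this choice, and the WT counts were low.

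LINC01503 (chr9:129339568-129340794) had a locus in the *ORC1Δ* and *ORC2Δ* lists, with 30 WT reads against 122 and 42 against 330, which gave log2 folds of 1.96 (1.38–2.59) and 2.74 (2.27–3.24). In ENSG00000234162 (chr2:105935834-105937022) the values were 55 against 242 and 53 against 237, at 2.08 and 1.93. In LINC00620 (chr3:13683233-13683714) they were 28 against 117 and 27 against 116, at 2.00 and 1.87. These loci were absent from the WT list, so each row needed a peak in the knockout line, which favored a high fold here too. The absolute GC skew of the 5 loci lay from 0.73 to 0.90, and each held the GTGTGTG motif. That motif was in 15.7% and 16.8% of the origins in lncRNA genes of the *ORC1Δ* and *ORC2Δ* tables. It was chosen after its units had been seen in the highest loci, so its presence here is not separate evidence.

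Among the lowest loci of a single line, many lay in segments where neighboring origins were low as well. In *ORC1Δ* cells the 3 lowest were at the tip of chromosome 7. ENSG00000286710 (chr7:426105-426471) had 78 WT against 35 *ORC1Δ* reads, ENSG00000249574 (chr7:380236-380907) had 167 against 79, and MICALL2-DT (chr7:1461172-1462130), divergent from a gene of the MICAL-like family, had 342 against 171. The log2 folds were −1.22, −1.14, and −1.06, where the *ORC2Δ* and *ORC5Δ* values of the 3 loci lay from −0.16 to 0.15. Within 500 kb, 54 of 70, 50 of 64, and 39 of 78 other origins were also lower by 1.5-fold in *ORC1Δ* cells, with medians of −0.82, −0.82, and −0.60.

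In *ORC2Δ* cells the short arm of chromosome 6 held such loci. LY86-AS1 (chr6:6491267-6491896) had 102 WT against 45 *ORC2Δ* reads, a log2 fold of −1.41 (−1.95 to −0.89), and 16 of 21 other origins within 500 kb were lower by 1.5-fold with a median of −0.95. ENSG00000271727 (chr6:716999-717786) had 135 against 66, a log2 fold of −1.27, and 22 of 27 neighbors were lower with a median of −0.88. PCDH10-DT (chr4:133145918-133146432), divergent from the protocadherin gene PCDH10, differed from these. It had 79 WT against 39 *ORC2Δ* reads, at −1.25 (−1.84 to −0.68), while none of its 3 neighbors was lower and their median was −0.06.

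In *ORC5Δ* cells the lowest locus in ENSG00000249684 (chr5:177960992-177961796) had 227 WT against 118 *ORC5Δ* reads, a log2 fold of −1.25 (−1.59 to −0.93). In *ORC1Δ* and *ORC2Δ* cells it stood at −0.40 and −0.42. Of its 40 neighbors 12 were lower in *ORC5Δ* cells, with a median of −0.34. How far the surrounding segment set the value of a locus was not tested.

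Segments of this kind held a part of all low origins in lncRNA genes. Over 5 Mb blocks whose median over all origins, after removal of a trend with G+C content, was under −0.25, *ORC2Δ* cells had 36 origins in lncRNA genes, of which 25 were lower by 1.5-fold, out of 112 lower in all. *ORC1Δ* cells had 36 in such blocks with 15 lower, out of 105, and *ORC5Δ* cells 14 with 3 lower, out of 33. Blocks over 0.25 held 15 of the 136 higher origins in *ORC2Δ* cells and 2 of the 227 in *ORC1Δ* cells. The blocks were picked by the folds of all origins in them, so changed origins in lncRNA genes were likely there. The low blocks held 402, 455, and 197 origins of all kinds in the *ORC1Δ*, *ORC2Δ*, and *ORC5Δ* tables. The share of these past 1.5-fold was not counted.

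**Figure D3:**
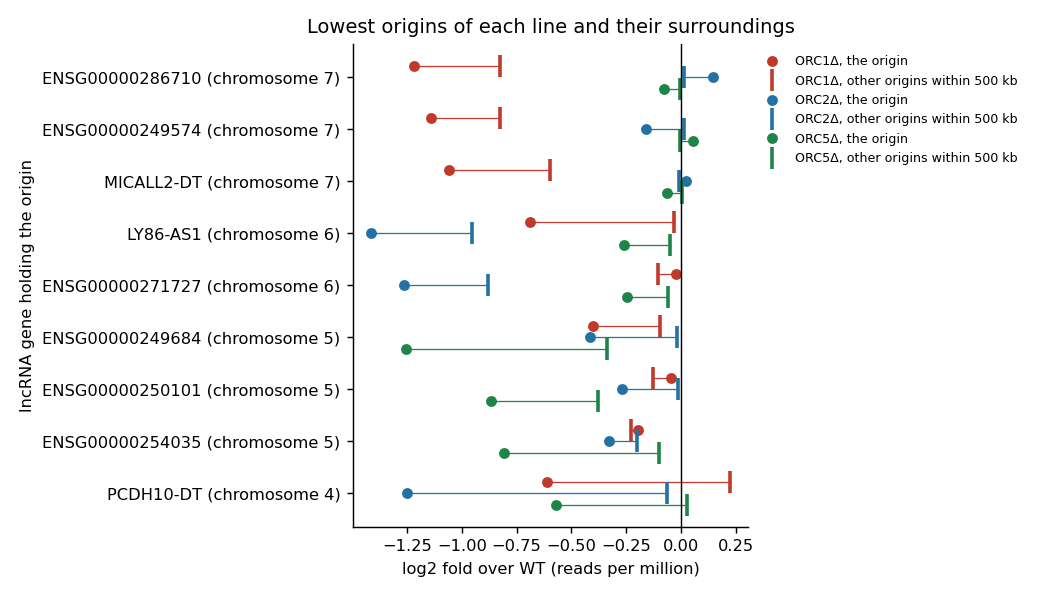
log2 fold over WT (x axis) of the loci that were among the 3 lowest of a line, named by gene (y axis), with 1 dot for each knockout line and a tick at the median of the other origins within 500 kb in the same line. Around the 3 chromosome 7 loci the neighbors' medians were −0.82, −0.82, and −0.60, and around PCDH10-DT the median was −0.06.

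CpG islands divided the origins in lncRNA genes in *ORC1Δ* cells. Of the 408 in an island 45 (11.0%) were lower by 1.5-fold and 6 (1.47%) higher, with a median log2 fold of −0.21 (−0.24 to −0.16). Of the 2844 outside, 60 (2.11%) were lower and 221 (7.77%) higher, with a median of 0.04. All origins split alike, with 12.7% lower in islands and 2.56% outside. In *ORC2Δ* cells the shares lower were 3.33% in islands and 3.30% outside, and in *ORC5Δ* cells 0.66% and 0.97%. G+C content moved with this result. After removal of the trend of fold with G+C content over all origins, the medians in *ORC1Δ* cells were −0.02 in islands and −0.01 outside.

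**Figure D4:**
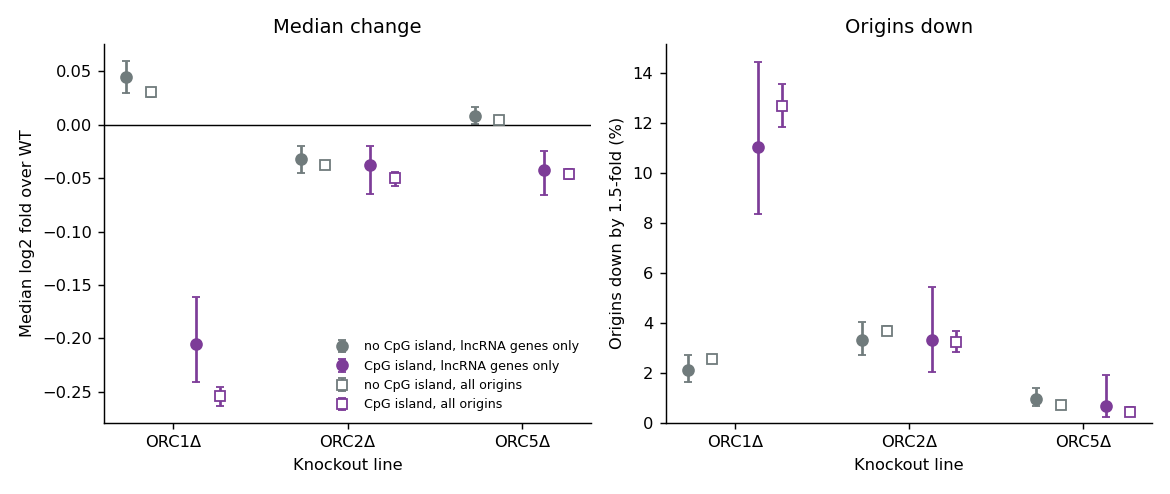
Median log2 fold over WT (left) and share of origins lower than WT by 1.5-fold (right, percent) in each knockout line (x axis), in CpG islands (purple) and outside them (gray), for origins in lncRNA genes only (dots) and all origins (squares). Bars are 95% intervals that cover counting of origins only; in *ORC1Δ* cells the share among origins in lncRNA genes was 11.0% in islands and 2.11% outside, and in the other lines the pairs lay close together.

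The place within the lncRNA gene went with the islands. In the *ORC1Δ* table, 815 origins lay within 1 kb of a transcript start, and 34.1% of these lay in an island, against 7.82% of 243 in exons and 5.06% of 2194 in introns. Origins at starts had a median log2 fold of −0.10 in *ORC1Δ* cells with 5.77% lower, those in exons −0.06 with 2.06% lower, and those in introns 0.06 with 2.42% lower. Among origins at starts, 10.8% of the 278 in islands were lower and 3.17% of the 537 outside. Among those in introns, 12.6% of the 111 in islands and 1.87% of the 2083 outside were lower, so origins in islands were lower more often in both places. In *ORC2Δ* cells starts and introns had the same median of −0.03.

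Distance to the nearest protein-coding start gave a like order in *ORC1Δ* cells. The 168 origins in lncRNA genes within 1 kb of such a start, of which 57.1% lay in an island, had a median of −0.13, with 7.74% lower and 2.38% higher. The 1098 over 50 kb away had a median of 0.04, with 2.73% lower and 8.20% higher, and 6.83% of them lay in an island. In *ORC2Δ* cells the medians of these classes were −0.03 and −0.05, and in *ORC5Δ* cells 0.01 and −0.00.

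An excess of G on the sense strand of the lncRNA gene was most common just after a transcript start. Over the origins whose lncRNA gene or genes lay on 1 strand, 55.6% (53.8–57.4) of 3057 in the *ORC1Δ* table had more G than C on the sense strand. In the first kb after a start 67.1% (62.6–71.4) of 432 did. The share was 67.9% (63.5–72.0) in the *ORC2Δ* table and 67.8% (63.5–71.9) in the *ORC5Δ* table. From 1 to 5 kb after the start it was 49.1%, 47.7%, and 48.4% in the 3 tables, and over 20 kb after it 57.1%, 55.3%, and 55.4%. In that first kb the G-quadruplex windows lay on the sense strand in 70.1% of origins and on the antisense strand in 35.9%. An island overlapped 36.6% of these origins. In the first kb before a start, where islands overlapped 43.4%, the share with more G on the sense strand was 56.6%.

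**Figure D5:**
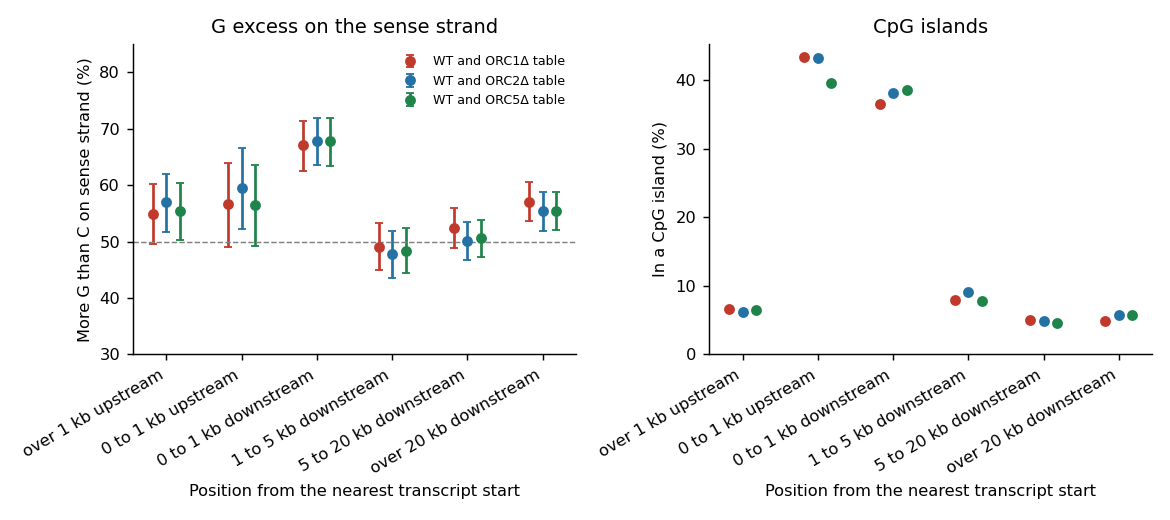
Share of origins in lncRNA genes with more G than C on the sense strand (left, percent, with 95% Wilson intervals and a dashed line at 50%) and share in a CpG island (right, percent), by distance from the nearest transcript start (x axis), in the 3 tables (colors). On the left the first kb downstream stood at 67.1% to 67.9%, and the distances from 1 to 20 kb lay between 47.7% and 52.4%.

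The origins with the most WT signal in lncRNA genes changed little. The locus in ENSG00000228361 (chr6:168233893-168238017), near DACT2, held 641.5 RPM in WT as a mean over the tables, where the median origin in a lncRNA gene held 17.6 RPM in the *ORC1Δ* table. It is a tandem repeat, with 361 different words of 12 bases in its 4125 bp, so reads may have been placed among repeat units. It had 4255 WT against 3626 *ORC1Δ* reads, 4256 against 4158 *ORC2Δ* reads, and 4269 against 4367 *ORC5Δ* reads, and log2 folds of −0.29 (−0.36 to −0.23), −0.27 (−0.33 to −0.20), and −0.28 (−0.34 to −0.22). In all 3 lines it was lower than WT by more than its counting error and less than 1.5-fold.

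Loci in ENSG00000262898 held 187.6 and 137.5 RPM at 2 places on chromosome 17 (chr17:83172121-83173813 and chr17:83192437-83193722), near the adipokine gene METRNL. Their log2 folds lay from −0.14 to −0.07. The locus in ENSG00000242540 (chr2:5705172-5706872), near the neural transcription factor gene SOX11, had 138.0 RPM. There *ORC2Δ* stood apart, with 920 WT against 1366 reads and a log2 fold of 0.34 (0.22–0.46), in a 5 Mb block whose median over all origins was 0.35. In *ORC1Δ* and *ORC5Δ* cells the values were −0.04 and 0.09.

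SLC5A4-AS1 (chr22:32205306-32206533) and AP1B1P1 (chr22:32122169-32123329), with 146.1 and 131.7 RPM, were the loci with related sequence shown above, so the placing of reads between copies is uncertain here too, as it is in ENSG00000262898, whose first locus held 635 different words of 12 bases at 1682 positions. A locus in ENSG00000289873 (chr22:32353516-32354827) shared 158 and 162 words of 12 bases with them and held 94.1 WT RPM. The log2 folds of SLC5A4-AS1 and AP1B1P1 lay from −0.11 to −0.03. ENSG00000236173 on chromosome 6 had 129.8 RPM and folds of 0.08, 0.23, and 0.15. None of the 8 loci with most WT signal passed 1.5-fold in any line. Most origins at large did not either, with 7.00%, 4.62%, and 2.05% higher and 3.95%, 3.61%, and 0.682% lower in the *ORC1Δ*, *ORC2Δ*, and *ORC5Δ* tables. The 8 were also picked by the WT reads that enter their folds.

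The genes with the most loci showed that origins within 1 lncRNA gene could differ widely. DIRC3-AS1, a gene of 641.7 kb on chromosome 2, held 12 loci, of which 5 were in all 3 tables. The log2 folds measured ran from −0.35 to 1.45 in *ORC1Δ* cells. In *ORC2Δ* cells they ran from −0.38 to 1.30 and in *ORC5Δ* cells from −0.35 to 0.40. USP2-AS1, of 302.8 kb on chromosome 11, also held 12, with 9 in all 3 tables and folds from −0.31 to 0.76, from −0.59 to 0.56, and from −0.25 to 0.32. LINC01169, of 103.6 kb, held 11, with 9 in all 3 tables, and had no measured fold over 0.13 in *ORC1Δ* cells, with its lowest at −0.54. VSTM2B-DT held 11 loci and ZC3H12A-DT, divergent from the gene of an RNA-cleaving regulator of inflammation, held 10.

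Hosts of small RNAs and lncRNAs named in cancer were looked up by name. Of 31 annotated hosts of small nucleolar RNAs, which guide the modification of ribosomal RNA, 4 held a locus of the kind described, SNHG10, SNHG16, SNHG31, and ZFAS1. Of their 7 loci, 3 were measured in the *ORC1Δ* table, 5 in the *ORC2Δ* table, and 6 in the *ORC5Δ* table. None of those measured passed 1.5-fold. Over all origins 7.00%, 4.62%, and 2.05% were higher and 3.95%, 3.61%, and 0.682% lower. So few loci cannot show whether these host genes differ from origins at large. The locus in SNHG10 (chr14:95525274-95526093) had 161 WT against 174 *ORC1Δ* reads, 161 against 230 *ORC2Δ* reads, and 170 against 242 *ORC5Δ* reads, with log2 folds of 0.05, 0.28, and 0.20.

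Of 33 annotated microRNA host genes 16 held 49 loci. *ORC1Δ* cells had 2 of 38 higher by 1.5-fold and 3 lower, *ORC2Δ* cells 2 of 42 higher and 4 lower, and *ORC5Δ* cells 0 of 42 higher and 3 lower. Over all origins the shares higher were 7.00%, 4.62%, and 2.05%, and the shares lower 3.95%, 3.61%, and 0.682%. MIR3142HG, the host of miR-146a, a microRNA that restrains innate immune signaling, held a locus (chr5:160447036-160447533) with 67 WT against 138 *ORC1Δ* reads, 66 against 126 *ORC2Δ* reads, and 80 against 136 *ORC5Δ* reads. Its log2 folds were 0.98, 0.70, and 0.46, so *ORC1Δ* was the highest line and *ORC5Δ* the lowest. MIR100HG held 10 loci, and those measured in the *ORC1Δ* table ranged there from −0.52 to 0.62. Of the 5 in MIR29B2CHG, the host of miR-29 microRNAs that repress collagen genes, 1 was past 1.5-fold in *ORC1Δ* cells, with 193 WT against 132 reads and a log2 fold of −0.61, and none was above 0 in that line. Another (chr1:207843513-207844028) was past it in *ORC2Δ* cells, with 75 WT against 55 reads and a log2 fold of −0.68.

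Of 50 annotated lncRNA genes on the cancer list 23 held 75 loci. *ORC1Δ* cells had 5 of 60 higher and 1 lower, *ORC2Δ* cells 4 of 63 higher and 2 lower, and *ORC5Δ* cells 1 of 65 higher and 1 lower, beside the same shares over all origins of 7.00%, 4.62%, and 2.05% higher and 3.95%, 3.61%, and 0.682% lower. LINC00511 held 9 of the loci, and 2 of them were higher. The locus at chr17:72553411-72553910 had 65 WT against 152 *ORC1Δ* reads and 66 against 163 *ORC2Δ* reads, with log2 folds of 1.17 and 1.07, and that at chr17:72557445-72557779 had 47 against 139 *ORC2Δ* reads, at 1.33. The other 7 lay between −0.51 and 0.32 in the 3 lines. NEAT1, the scaffold RNA of paraspeckles, held 2 loci with log2 folds from −0.09 to 0.18, and none of the 7 loci in MEG3, an imprinted lncRNA gene, or of the 4 in LINC-ROR passed 1.5-fold.

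The kind of name a lncRNA gene carries did not separate the counts by much. In *ORC1Δ* cells 6.52% of 460 origins in antisense genes (symbols that end in AS), 6.06% of 231 in divergent transcripts (DT), 6.78% of 678 in intergenic genes (LINC), and 7.50% of 1519 in genes with no symbol were higher by 1.5-fold, against 7.00% of all origins. Their medians lay from −0.02 to 0.04. In *ORC5Δ* cells 1 of 249 origins in divergent transcripts was higher and none lower, against 12 and 5 of 503 in antisense genes, beside 2.05% higher and 0.682% lower of all origins.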

How the data were processed

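The deposited count tables, 1 for each knockout line against WT, hold whole-number read counts per origin that the authors made after trimming with Trim Galore 0.6.4 (per the submitters' processing notes), mapping to hg38, calling peaks, and merging the 2 replicates of each line. The tool that counted reads and the handling of duplicates and of reads with several map positions are not given in the sources used here. The deposited peak lists of the 4 lines gave the presence of a locus only. The 8 samples entered only through the merged counts of their lines, and no column of another series was found.

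Counts were divided by the total of each column, other contigs included, and a call was a change of 1.5-fold in RPM, as in the study's methods. Intervals are exact (Clopper–Pearson) 95% intervals on the share of reads for a fold, Wilson intervals for a share of origins, and distribution-free binomial intervals for a median. Origins are not replicates, so the last 2 do not measure spread between cultures. Genes came from GENCODE release 44 and sequences, CpG islands, and motifs from hg38. Loci are rows of the 3 tables merged at any overlap.

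Named loci are the 8 highest and 8 lowest by their smallest change over the 3 lines with at least 100 reads of both lines together in each table, the 3 highest and 3 lowest of each line, the 8 with most WT RPM, the 6 genes with most loci, and for each list of lncRNA genes the 8 genes with most WT reads. The members and lists were chosen with earlier results of these data known. GTGTGTG, CACCATCAC, ENSG00000289873, the words of 12 bases, and the 500 kb windows were chosen after values were seen, as were the loci named among the 33. Alternatives were TMM (edgeR 4.0.16) and median-of-ratios scaling, read filters of 50 and 200 reads, a 2-fold call, a correction for G+C content, and other limits of the rule. Scripts (Python 3.11.15, pandas 2.3.3, scipy 1.17.1, R 4.3.3) were tested on simulated data.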

Additional observations from a re-analysis of the deposited data

Results flagged for a closer look

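Origins in lncRNA genes on chromosome X lie outside the rule and were counted apart. In *ORC1Δ* cells 2 of 27 were higher by 1.5-fold and 1 was lower, with a median log2 fold of −0.10. In *ORC2Δ* and *ORC5Δ* cells none of 26 and 27 was higher and 0 and 1 were lower, with medians of 0.12 and 0.02.

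A locus in ENSG00000291113 (chr5:177930329-177930778) went opposite ways in 2 lines, with a log2 fold of 0.54 in *ORC2Δ*, −0.64 in *ORC5Δ*, and −0.20 in *ORC1Δ* cells. The counting intervals of the first 2 lay on opposite sides of 0, and the difference was not tested against replicates. It lies within 500 kb of the locus in ENSG00000249684, around which 12 of 40 other origins were lower by 1.5-fold in *ORC5Δ* cells with a median of −0.34, and the part of that segment in the *ORC5Δ* value was not tested. Of 2572 loci in lncRNA genes with at least 100 reads in each table, 8 had 1 line's interval above 0 and another's below it, and at this locus alone 1 of the 2 values was past 1.5-fold in size.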

How the results depend on the processing

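No paired analysis was possible because the tables merge the replicates of each line, and for the same reason no replicate could be left out. Of 154 recomputed values 122 stayed within 1.5 times the count or within the interval of the value, and 32 moved. No value past 1.5-fold changed sign, but the medians, which lay near 0, did so under some settings. The removal of G+C trends and of 5 Mb blocks was among the settings. Counts fell where a setting by construction leaves fewer origins or asks for more change. With at least 200 reads of both lines together, *ORC1Δ* cells had 106 higher and 35 lower origins (227 and 105 otherwise), *ORC2Δ* cells 68 and 31 (136 and 112 otherwise), and *ORC5Δ* cells 34 and 4 (67 and 33 otherwise). With a 2-fold call they were 56, 41, and 9 higher and 7, 17, and 2 lower. After correction for G+C content the higher origins in *ORC1Δ* cells were 144. These settings were not applied to all origins, and the read filter also changes the number of origins counted. The counts are therefore not rates and are not set beside origins at large. The median log2 fold in *ORC1Δ* cells, 0.011, became 0.024 with median-of-ratios scaling, −0.0096 with at least 200 reads, and −0.0081 after the G+C correction. In *ORC2Δ* cells −0.033 became 0.0047 with TMM, 0.0055 with median-of-ratios scaling, and 0.0023 after the G+C correction. With protein-coding bodies extended by 2 kb, the share in CpG islands went from 12.6% to 9.82%, from 13.3% to 10.6%, and from 12.8% to 10.2% in the *ORC1Δ*, *ORC2Δ*, and *ORC5Δ* tables, and the median G+C content from 51.3% to 50.9%, from 51.8% to 51.4%, and from 51.8% to 51.4%. With a limit of 50 kb in place of 100 kb, the islands held 14.9%, 15.7%, and 15.0%, the G+C medians were 51.9%, 52.3%, and 52.4%, and the share of loci in all 4 lists was 32.6% in place of 30.2%. Of 312 recomputed folds of named loci 305 stayed within their counting interval and none past 1.5-fold changed sign. Of 186 recomputed folds past 1.5-fold, 1 was no longer past it.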
